A study of Mus musculus with 9 samples.

Results

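The complement genes C2, C3, C4b, C6, C7, Cfb, Cfd, Serping1, and Cd55, which fibroblasts are known to express, were followed in fibroblasts sorted from the lungs of aged mice 30 days after bleomycin or saline. The members were taken by gene symbol, and all 9 were found once each among the 43346 genes of the table. Libraries came from 4 aged sham and 5 aged bleo mice, all male Col1a1-GFP transgenics on the FVB background, aged 18 months by the methods and 72 weeks by the sample labels, given saline (aged sham) or bleomycin (aged bleo) into the trachea. The Col1a1-GFP transgene expresses GFP where the collagen I promoter is active, so the sort took cells by promoter activity, and it discarded cells with CD45 (hematopoietic), CD31 (endothelial), or EpCAM (epithelial) on their surface. The comparison is that of bleomycin against saline in aged lungs, and young mice were not analysed here.

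Complement is a cascade of plasma proteins that tags surfaces for removal, attracts leukocytes, and perforates membranes. The classical and lectin routes cut C4 and C2, the alternative route uses factor B (Cfb) and factor D (Cfd), and all routes meet at C3, whose fragment C3b binds covalently to nearby surfaces. C6 and C7 are subunits of the terminal membrane attack complex, Serping1 encodes the C1 inhibitor that blocks the first proteases, and Cd55 encodes decay-accelerating factor, a membrane protein that takes apart the enzymes that cut C3. The liver makes most of the circulating proteins, while fibroblasts and macrophages are known as local sources.

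Promoter letters are shown for members that fell (C3 and Cd55), rose (C6), or were not called (C7), since those members moved differently. The stretches run from 200 bases before to 30 bases after the RefSeq start on GRCm38.p6, 5′ to 3′ on the strand of the gene, and capitals mark matches of the 6 motifs searched.
C3 (chr17:57228107-57228336, minus strand): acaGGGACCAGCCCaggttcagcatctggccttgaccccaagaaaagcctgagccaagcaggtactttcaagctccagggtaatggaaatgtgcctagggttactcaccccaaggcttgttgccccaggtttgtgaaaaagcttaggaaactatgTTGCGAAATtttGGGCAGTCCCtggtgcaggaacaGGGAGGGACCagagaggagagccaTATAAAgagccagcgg
Cd55 (chr1:130462715-130462944, minus strand): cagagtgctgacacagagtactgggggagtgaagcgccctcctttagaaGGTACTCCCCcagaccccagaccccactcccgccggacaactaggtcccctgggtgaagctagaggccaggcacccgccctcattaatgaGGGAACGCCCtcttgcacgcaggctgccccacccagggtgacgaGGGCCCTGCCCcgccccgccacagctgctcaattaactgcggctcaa
C6 (chr15:4727010-4727239, plus strand): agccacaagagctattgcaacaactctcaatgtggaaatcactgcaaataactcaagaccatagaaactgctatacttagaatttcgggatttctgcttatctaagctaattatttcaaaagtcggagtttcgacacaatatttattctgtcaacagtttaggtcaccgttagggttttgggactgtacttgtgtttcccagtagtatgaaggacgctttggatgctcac
C7 (chr15:5063744-5063973, minus strand): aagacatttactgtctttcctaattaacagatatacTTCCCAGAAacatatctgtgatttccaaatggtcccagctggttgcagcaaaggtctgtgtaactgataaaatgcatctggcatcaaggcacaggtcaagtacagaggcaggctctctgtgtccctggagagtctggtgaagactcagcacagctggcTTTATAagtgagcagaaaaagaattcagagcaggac
Promoters of 5 of the 9 members (C3, C6, C7, Cd55, and Cfd) were at hand. The motifs, read on both strands from 250 bases before to 50 after the start, were those of NF-kappaB (GGG and CC with 5 bases of any kind between), of C/EBP (TTGCNNAAT), of interferon response (GAAA and GAAA with 2 bases of any kind between), of STAT (TTCNNNGAA), of AP-1 (TGANTCA), and of the TATA box (TATAAA). The C3 window held 4 partly overlapping NF-kappaB matches, a C/EBP match whose first base was at -45, and a TATAAA at 15. Among 32851 promoters of the same length, 50.8% held the NF-kappaB letters, 2.4% the C/EBP letters, and 13.6% TATAAA. The Cd55 window held 4 NF-kappaB matches, of which 2 overlapped, and the C7 window a STAT match at -164 (8.3% of all promoters) and a TATAAA on the opposite strand at -6. None of the 6 motifs was found in the C6 window, where the interferon response letters (3.4% of all promoters) and the AP-1 letters (7.8%) were absent as in the other windows shown. These matches are a description of letters and no sites of binding.

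The libraries held 49921946 to 62370512 counted reads in aged sham (median 54988154) and 53833507 to 68260600 in aged bleo (median 55598628). CPM values are counts scaled to a library total of 1e6 and adjusted by TMM factors, and a gene without a count could still lie below 3 counts, or 0.0409 to 0.0605 CPM, a limit for counting error only. Levels of one gene are compared between libraries in CPM, and levels of different genes in FPKM, which is also scaled to gene length. Fibroblast identity markers summed to 24845 to 30577 CPM in aged sham and 54995 to 72429 CPM in aged bleo, while endothelial markers summed to 15.2 to 24.5 CPM over the 9 libraries and epithelial markers to 15.9 to 99.3 CPM. Of the 8 fibroblast identity markers, 4 rose, among them Col1a1 from a mean of 4154 to 20853 CPM. Dcn (8122 to 2795 CPM) and Tcf21 (106 to 49.6 CPM) fell, so the sum does not measure fibroblast content. The aged bleo libraries did not form an even group, as 2 of them, aged bleo 4 and aged bleo 5, stood apart from aged bleo 1 to 3 for most members, and the fold changes of tested members and of the other complement genes named as called are therefore also given without them. The column names carry a last number of unstated meaning, which is 4 in every aged sham library, 5 in aged bleo 1 to 3, 4 in aged bleo 4, and 6 in aged bleo 5.

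In uninjured aged fibroblasts, complement transcripts covered a wide range of abundance. C3 was at 1106 ± 32.7 FPKM (SD, n = 4) and ranked 9 among all genes of the table by mean FPKM, and Serping1 was at 927 ± 56.1 FPKM with rank 10. C4b followed at 215 ± 23.5 FPKM (rank 68) and C7 at 109 ± 13.7 FPKM (rank 157). The middle of the order was held by Cfb at 61.1 ± 1.10 FPKM, C2 at 29.5 ± 2.94 FPKM, and Cd55 at 19.3 ± 4.42 FPKM. C6 was at 0.253 ± 0.0936 FPKM (rank 15375), and Cfd, at 0.0660 ± 0.0548 FPKM, was the lowest. In aged sham, no neighbours in this order overlapped in their FPKM ranges, and the order was the same in 4 of 4 libraries. In aged bleo, the mean FPKM values kept the same order, but the ranges of neighbours overlapped from C3 down to Cd55, and in 1 library, aged bleo 4, Serping1 (224 FPKM) was above C3 (219.55 FPKM).

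After bleomycin, 5 members fell, 1 member rose, 2 members were not called, and 1 member was too scarce to test. C3, Cfb, C2, Serping1, and Cd55 were lower in aged bleo, at 45.1% to 56.8% of their aged sham means, and C6 was higher, at 560% of its aged sham mean. The 8 tested members, of 16877 genes tested in all, passed edgeR's quasi-likelihood test (FDR under 0.10, fold change over 1.5) in 75.0% of cases, and 23.8% of all genes tested did so. In the lower direction, 62.5% of the tested members passed, against 11.5% of all genes, and in the higher direction 12.3% of all genes passed. The median log2 fold change of the members was -0.83, beside 0.0064 for all genes. For 5 members all aged bleo libraries lay below all aged sham libraries, as for 16.1% of genes tested, and for 1 member, C6, all lay above, as for 16.1%. In bulk RNA of a sorted population, fewer cells that express a gene and less RNA per cell cannot be told apart.

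**Figure D1:**
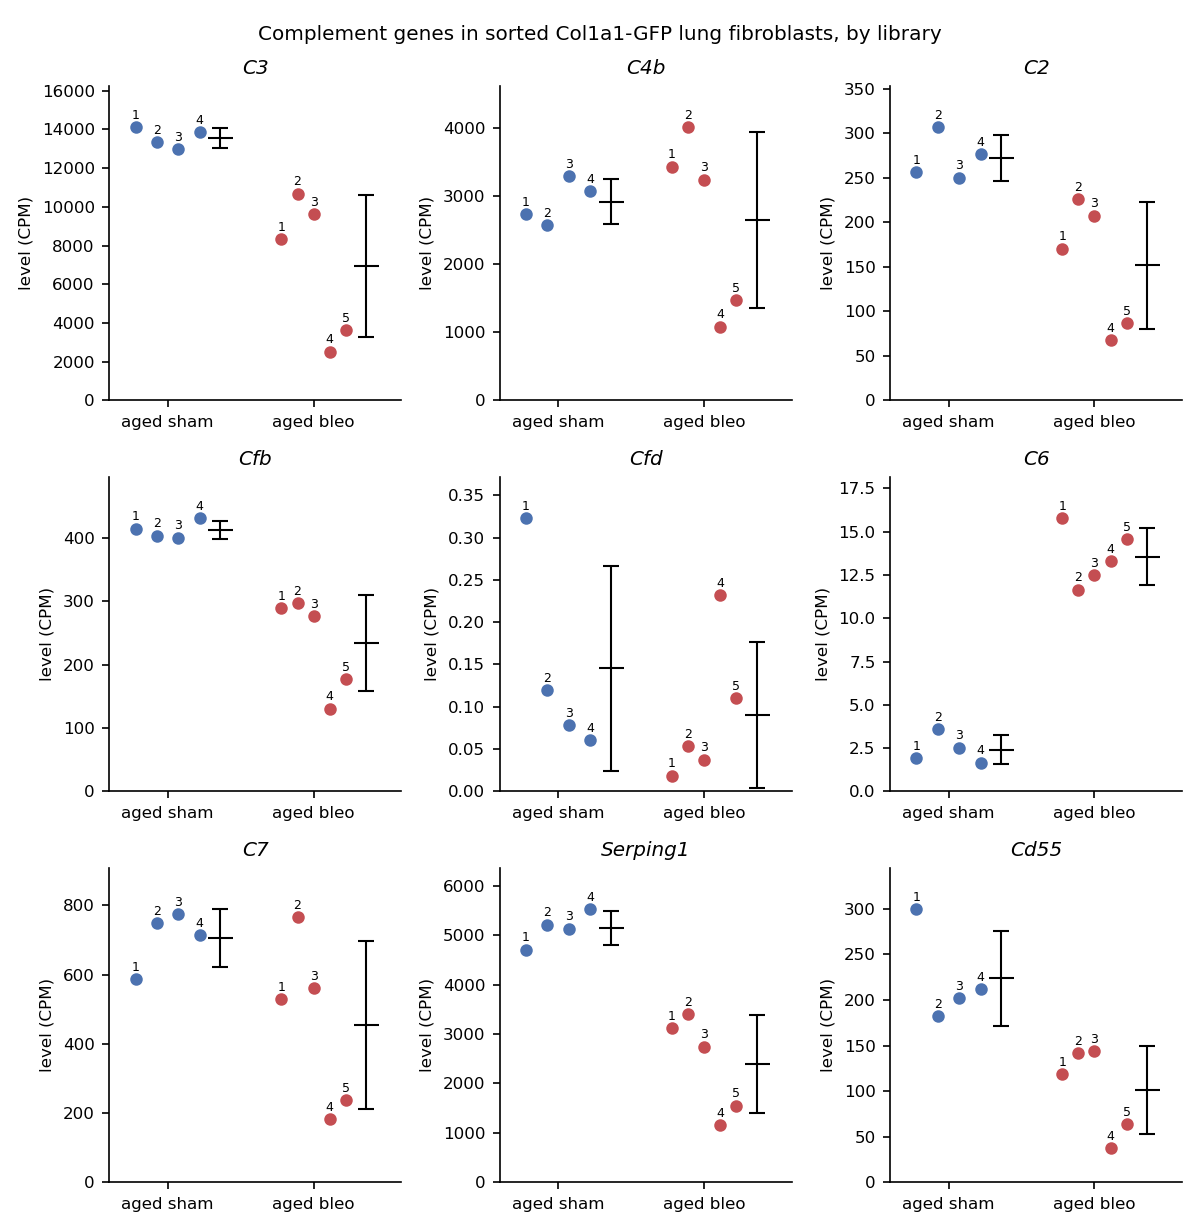
Level of each of the 9 complement members (CPM, linear axes from 0) in the 4 aged sham (blue) and 5 aged bleo (red) libraries, numbered by replicate. The bars beside the points are the mean and SD, and C3, C2, Cfb, Serping1, and Cd55 show all red points below all blue points, whereas C6 shows all red points above.

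C3, the component on which all routes converge (chromosome 17, 57203970 to 57228136, minus strand, GRCm38), was the most abundant member by mean in both groups. It was at 14122, 13322, 12985, and 13856 CPM in aged sham 1 to 4, and at 8317, 10677, 9629, 2514, and 3641 CPM in aged bleo 1 to 5. The aged sham libraries lay close together, all aged bleo libraries were below them, and aged bleo 4 and aged bleo 5 were the lowest. The means were 13571 ± 513 CPM (SD, n = 4) and 6956 ± 3659 CPM (SD, n = 5), a log2 fold change of -0.96 with a standard error of 0.40 and an edgeR FDR of 0.0881. C3 transcripts made up 1.30% to 1.40% of all counted reads in aged sham and 0.270% to 1.05% in aged bleo. Without aged bleo 4 and aged bleo 5, the log2 fold change was -0.51 (standard error 0.11, edgeR FDR 0.0108), under the 1.5-fold threshold. The C3 call was lost without any 1 of aged sham 1 to 4, aged bleo 1, or aged bleo 5, with an edgeR FDR of 0.110 to 0.161.

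C4b, the mouse C4 whose fragment joins C2 in the C3-cutting enzyme of the classical and lectin routes (chromosome 17, 34728380 to 34743882, minus strand), was not called. Its levels were 2735, 2571, 3293, and 3067 CPM in aged sham 1 to 4, and 3428, 4009.8, 3236, 1082, and 1471 CPM in aged bleo 1 to 5. The groups overlapped, with aged bleo 1 and aged bleo 2 above all aged sham libraries and aged bleo 4 and aged bleo 5 below them. The log2 fold change was -0.14 (standard error 0.36, edgeR FDR 0.793), and it was 0.05 without aged bleo 4, 0.01 without aged bleo 5, and 0.28 (standard error 0.12, edgeR FDR 0.110) without both. Of the 50-base windows of C4b transcripts, 34.6% also occur in C4a, a neighbouring copy with means of 42.9 ± 5.80 CPM (aged sham) and 39.9 ± 17.6 CPM (aged bleo) (log2 fold change -0.11, edgeR FDR 0.829), so the split of reads between C4b and C4a is uncertain.

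C2, the protease subunit of the enzyme that C4b builds (chromosome 17, 34862604 to 34898265, minus strand), fell after bleomycin. It was at 256, 307, 250.1, and 277 CPM in aged sham 1 to 4, and at 170.5, 226, 207, 67.3, and 86.9 CPM in aged bleo 1 to 5. Every aged bleo library was below every aged sham library, and aged bleo 2 was the nearest. The log2 fold change was -0.85 with a standard error of 0.33 and an edgeR FDR of 0.0759, and it was -0.44 (edgeR FDR 0.0217), under the 1.5-fold threshold, without aged bleo 4 and aged bleo 5. The C2 call was also lost without any 1 of aged sham 1 to 4, aged bleo 1, or aged bleo 5, with an edgeR FDR of 0.102 to 0.155. Cfb, the alternative-route counterpart of C2 (chromosome 17, 34856374 to 34862518, minus strand), was at 414, 403, 400.0, and 431 CPM in aged sham 1 to 4, and at 289, 297, 276, 130.3, and 177 CPM in aged bleo 1 to 5. The aged sham libraries varied by 3.41% of their mean (SD), and all aged bleo libraries were below them. The Cfb log2 fold change was -0.82 with a standard error of 0.23 and an edgeR FDR of 0.0228, and it was -0.53 (edgeR FDR 0.00103), under the 1.5-fold threshold, without aged bleo 4 and aged bleo 5.

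The counts of C2 and Cfb are not separate from those of another annotated gene. Gm20547 (chromosome 17, 34856412 to 34882042) spans both genes, and its exons cover 42.8% of the exon bases of C2 and 79.5% of those of Cfb. Its count equalled 82.1% to 85.3% of the summed C2 and Cfb counts in each library. How reads in shared exons were assigned is not stated, so the C2, Cfb, and Gm20547 values (the last with a log2 fold change of -0.83, edgeR FDR 0.0344) are not independent measurements. Zbtb12, which rose (log2 fold change 0.66, edgeR FDR 0.00501), overlaps 4.16% of the C2 exon bases. C2 and Cfb shared no 50-base window with each other.

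Cfd, also called adipsin, the protease that cuts factor B and a known product of adipocytes (chromosome 10, 79890853 to 79892656, plus strand), was near the limit of detection. Its counts were 20, 7, 4, and 3 in aged sham 1 to 4, and 1, 3, 2, 17, and 6 in aged bleo 1 to 5. The groups overlapped, and with a mean count of 7 the gene was below the 25 counts required for the test. Adipocyte markers were also near 0, with all 7 listed genes under 1 CPM in every library, Lep and Pck1 at 0 in at least 1 library, and sums of 0.888 to 2.20 CPM in aged sham and 0.614 to 1.33 CPM in aged bleo. When all genes were tested with no filter, the Cfd log2 fold change was -0.62 (standard error 0.70, edgeR FDR 0.569), so no difference was detected.

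C6, an early subunit of the membrane attack complex (chromosome 15, 4727175 to 4815456, plus strand), was the only member that rose. It was at 1.91, 3.59, 2.53, and 1.65 CPM in aged sham 1 to 4, and at 15.8, 11.7, 12.5, 13.3, and 14.6 CPM in aged bleo 1 to 5. Every aged bleo library exceeded every aged sham library, and aged bleo 4 and aged bleo 5 lay within the range of aged bleo 1 to 3. The means were 2.42 ± 0.864 CPM (SD, n = 4) and 13.6 ± 1.65 CPM (SD, n = 5), and the log2 fold change was 2.48 with a standard error of 0.23 and an edgeR FDR of 1.23e-04. Without aged bleo 4 and aged bleo 5, it was 2.45 (standard error 0.26, edgeR FDR 7.05e-04). Even after this rise, C6 was at 1.45 ± 0.196 FPKM and ranked 10160 among all genes of the table, below every other tested member.

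C7, the subunit that joins C6 in the same complex and is encoded beside it (chromosome 15, 4988762 to 5063773, minus strand), was not called. It was at 587, 749, 775, and 713 CPM in aged sham 1 to 4, and at 529, 766, 560.1, 182, and 238 CPM in aged bleo 1 to 5. Aged bleo 2 lay within the aged sham range, and the other 4 aged bleo libraries lay below it. The log2 fold change was -0.63 with a standard error of 0.38 and an edgeR FDR of 0.221. It was -0.90 without aged bleo 2 (edgeR FDR 0.0704), which passes the thresholds, and -0.20 (edgeR FDR 0.356) without aged bleo 4 and aged bleo 5. C6 and C7 shared no 50-base window.

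Serping1, the C1 inhibitor that inactivates C1r, C1s, and plasma kallikrein (chromosome 2, 84765387 to 84775444, minus strand), was the most abundant regulator. Its levels were 4706, 5210.3, 5128, and 5528 CPM in aged sham 1 to 4, and 3121, 3399.7, 2746, 1160.4, and 1553 CPM in aged bleo 1 to 5. No aged bleo library reached the lowest aged sham library. The means were 5143 ± 338 CPM (SD, n = 4) and 2396 ± 986 CPM (SD, n = 5), with a log2 fold change of -1.10, a standard error of 0.30, and an edgeR FDR of 0.0209. Without aged bleo 4 and aged bleo 5, the log2 fold change was -0.74 (edgeR FDR 0.00203), past both thresholds.

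Cd55, the membrane regulator that dissociates the C3-cutting enzymes (chromosome 1, 130439027 to 130462744, minus strand), fell to a degree close to that of Serping1. It was at 299.7, 182, 202, and 212 CPM in aged sham 1 to 4, and at 118, 142, 144, 37.5, and 63.7 CPM in aged bleo 1 to 5. Aged sham 1 was the highest library, and all aged bleo libraries were below aged sham 2, the lowest uninjured library. The log2 fold change was -1.15 with a standard error of 0.37 and an edgeR FDR of 0.0380, and it was -0.74 (edgeR FDR 0.0155) without aged bleo 4 and aged bleo 5 and -0.98 without aged sham 1. Its copy Cd55b shares 8.0% of the 50-base windows of Cd55, had means of 0.323 ± 0.105 CPM (aged sham) and 0.192 ± 0.0658 CPM (aged bleo), and was too scarce to test.

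The members that fell were more uneven among aged bleo libraries than C6. Leaving out C6, the 7 other tested members were at a median of 62.6%, 78.7%, and 71.0% of their aged sham means in aged bleo 1, 2, and 3, but at 24.7% in aged bleo 4 and 31.9% in aged bleo 5. All 7 were below the lowest aged sham library in aged bleo 4 and in aged bleo 5, including C4b and C7. The lowest library was aged bleo 4 and the next aged bleo 5 for 7 of the 8 tested members, as for 20.2% of all genes tested and 53.2% of the 1940 genes called lower. The coefficient of variation in aged bleo was 32.2% to 53.3% for these 7 members and 12.1% for C6. In aged sham, C6 had the highest of the 8 tested members, at 35.7%.

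Summed markers of fibroblast subtypes moved with this unevenness, as did the summed smooth muscle and pericyte markers. Smooth muscle and pericyte markers summed to 1436.5 to 2796 CPM in aged sham and 1475 to 1818 CPM for aged bleo 1 to 3. Their sum was 835 CPM for aged bleo 4 and 1314 CPM for aged bleo 5. Of 10 adventitial fibroblast markers, 9 fell and 1, Col15a1, rose, and their summed level was 9836 to 11090 CPM in aged sham, 4844 to 6243 CPM for aged bleo 1 to 3, 1865 CPM for aged bleo 4, and 2165 CPM for aged bleo 5. Of 9 alveolar fibroblast markers, 2 rose (Npnt and Scube2), 3 fell (Inmt, Ces1d, and Tcf21), and 4 were not called. Their sums were 2844.5 to 4544 CPM in aged sham. They were 2204 to 3098 CPM for aged bleo 1 to 3, 1061 CPM for aged bleo 4, and 1403 CPM for aged bleo 5. Inmt, whose mean went from 1984 to 560 CPM, held the largest part of the aged sham sums. Mean levels of Npnt, Limch1, Scube2, and Fgfr4 were higher after bleomycin, and those of Itga8, Ces1d, Tcf21, and Slc7a10 were lower. The alveolar sum therefore does not describe the 9 markers as a set. No marker of these lists was at 0 in any library, and the part of fibroblast subtypes in the fall of C3, C2, Cfb, Serping1, and Cd55 was not tested. Among the libraries whose column names end in 4, aged bleo 4 alone against the 4 aged sham libraries gave a log2 fold change of -2.42 for C3, 2.47 for C6, -1.41 for C4b, and -1.94 for C7, values that restate the levels of that 1 library.

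**Figure D2:**
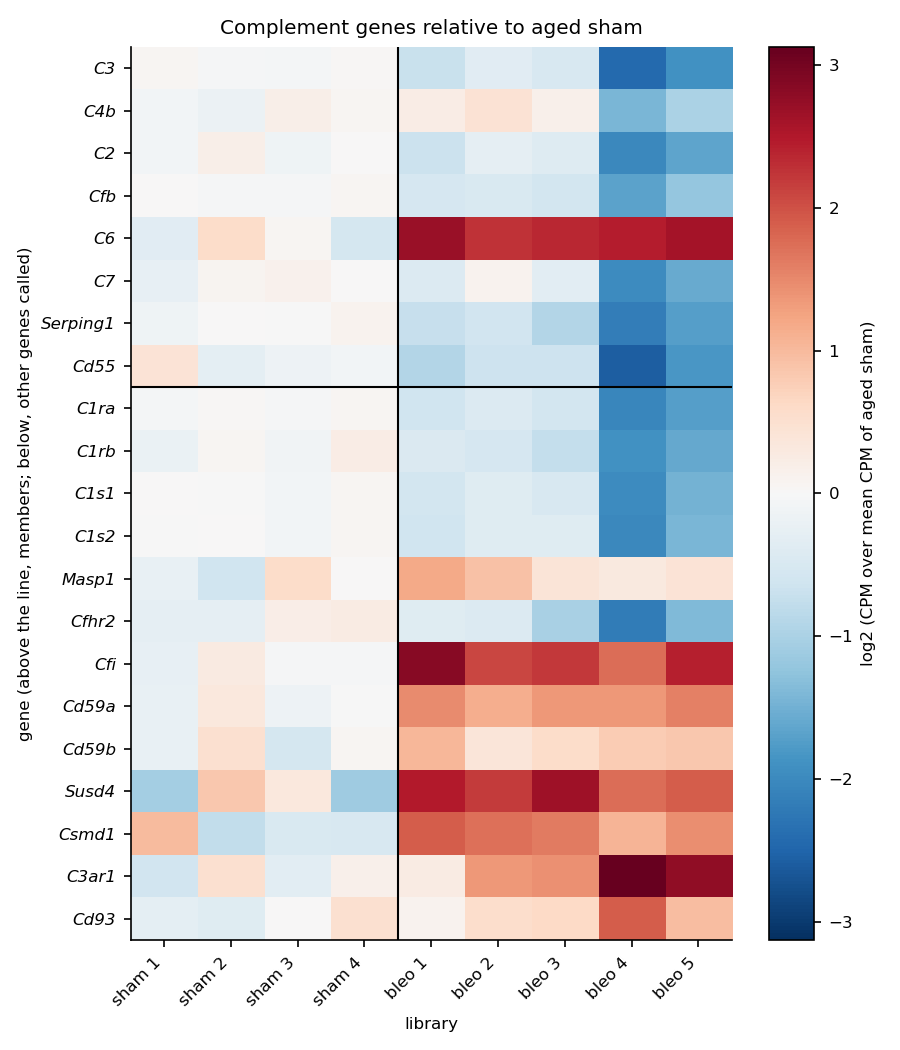
Heat map of log2 (CPM over the mean CPM of aged sham) in each of the 9 libraries for the 8 tested members (above the line) and 13 of the 14 other complement genes called (below it). Aged bleo 4 and aged bleo 5 are the darkest blue columns for the members that fell, while C6 is red in all 5 aged bleo libraries.

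Leukocyte transcripts were present in the sort and peaked in 1 library of each group. The 6 pan-leukocyte markers, of which 1 rose, summed to 101 to 371 CPM in aged sham and 100.01 to 566 CPM in aged bleo, highest in aged sham 4 and aged bleo 4. The 9 macrophage markers, of which 4 rose and 5 were not called, summed to 243 to 623 CPM in aged sham and 547 to 1841 CPM in aged bleo. Lyz2, which rose from a mean of 117 to 628 CPM, held the largest part of the aged bleo sums, while Cd14 (177 to 155 CPM) was not called. No neutrophil or mesothelial marker was called. Neutrophil markers summed to 152 to 937 CPM in aged sham and 83.3 to 841 CPM in aged bleo, again highest in aged sham 4 and aged bleo 4. Without aged sham 4 and aged bleo 4, C6, Cfb, Serping1, and Cd55 passed the thresholds, while C3 (log2 fold change -0.76, edgeR FDR 0.124) and C2 (log2 fold change -0.67, edgeR FDR 0.118) did not.

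Because C3 and C4b are related proteins of similar length that differed in their change, their FPKM ratio was taken within each library. This ratio and the 2 that follow were chosen after the values were seen and are given without a test. C4b over C3 was 0.175, 0.174, 0.229, and 0.1999 in aged sham 1 to 4, and 0.372, 0.339, 0.304, 0.389, and 0.365 in aged bleo 1 to 5. Every aged bleo library exceeded every aged sham library, and aged bleo 4 and aged bleo 5, which had the lowest levels of both genes, lay within 0.304 to 0.389 with the rest. Cfb over C2 was 2.09 ± 0.194 (SD, n = 4) in aged sham and 2.28 ± 0.458 (SD, n = 5) in aged bleo, with overlapping libraries. C6 over C7 was 0.00229 ± 6.89e-04 in aged sham and 0.0271 ± 0.0170 in aged bleo, with all aged bleo libraries above, so that C7 transcripts remained in excess of C6 in every library.

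**Figure D3:**
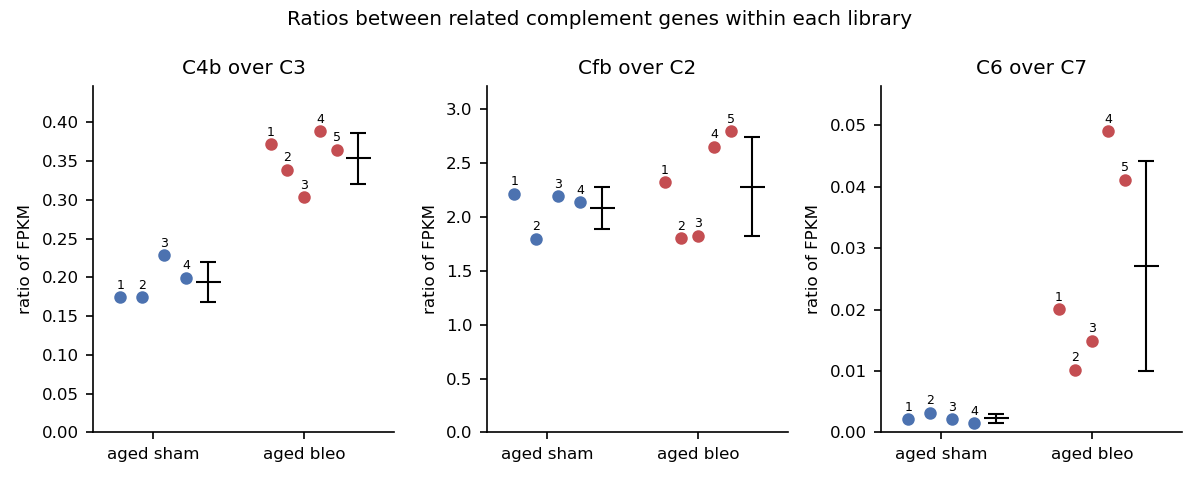
FPKM ratios of C4b over C3, Cfb over C2, and C6 over C7 in each library (linear axes from 0, numbered by replicate, bars for mean and SD). C4b over C3 spans 0.174 to 0.229 in aged sham and 0.304 to 0.389 in aged bleo, and Cfb over C2 overlaps between the groups.

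The other genes of the pathway were taken from 4 lists with 52 genes, of which 35 were tested, 8 rose, 6 fell, and 21 were not called. Thus 40.0% of the 35 were called, against 23.8% of all genes tested (12.3% higher and 11.5% lower). The median log2 fold change of the 35 genes was -0.08. The recognition molecules and first proteases (16 listed, 12 tested) had 4 genes that fell and 1 that rose. The proteases C1r and C1s, which Serping1 inhibits, fell in all their mouse copies, C1ra by 0.93 on the log2 scale (edgeR FDR 0.0465), C1rb by 0.93 (0.0348), C1s1 by 0.85 (0.0545), and C1s2 by 0.84 (0.0591). C1ra went from 783 ± 33.3 CPM to 410.4 ± 182 CPM and C1s1 from 1367 ± 63.0 CPM to 759.7 ± 317 CPM, with all aged bleo libraries below all aged sham libraries. As C1ra shares 48.0% of its 50-base windows with C1rb and C1s1 shares 21.8% with C1s2, the copies may share reads. Masp1, a protease of the lectin route, rose (log2 fold change 0.69, edgeR FDR 0.0738). Without aged bleo 4 and aged bleo 5, all 4 copies were under the 1.5-fold threshold, with log2 fold changes of -0.54 for C1ra, -0.57 for C1rb, -0.48 for C1s1, and -0.46 for C1s2 (edgeR FDR 0.00195 to 0.00992), while Masp1 was at 0.87 (edgeR FDR 0.0555). Single libraries decided some of these calls, as the edgeR FDR was 0.101 to 0.109 for C1s1 without aged sham 2, aged sham 4, or aged bleo 5, 0.1015 to 0.120 for C1s2 without aged sham 1, 2, or 4 or aged bleo 5, and 0.116 to 0.172 for Masp1 without aged sham 1, 2, or 4 or aged bleo 1 or 2.

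The C1q chains, which recognise antibody and are known products of macrophages, did not pass the test. C1qa had a log2 fold change of 1.46 (edgeR FDR 0.121), C1qb of 1.52 (0.1001), and C1qc of 1.33 (0.148). C1qa spanned 6.53 to 17.7 CPM among aged sham and 6.64 to 77.5 CPM among aged bleo libraries, and its highest library was aged bleo 4, the library with the highest macrophage marker sum (1841 CPM). The log2 fold changes were 0.74, 0.88, and 0.68 without aged bleo 4 (edgeR FDR 0.293, 0.224, and 0.357), and 0.11, 0.23, and 0.02 without aged bleo 4 and aged bleo 5 (edgeR FDR 0.864, 0.695, and 0.974). Without aged bleo 1, all 3 chains passed the thresholds (edgeR FDR 0.0570, 0.0422, and 0.0657), as did C1qa and C1qb without aged bleo 2 (0.0925 and 0.0756) and C1qb without aged bleo 3 (0.0974). The part of macrophages in the C1q values was not tested.

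None of the 4 tested genes of the alternative and terminal list (7 listed) was called. Hc, which encodes C5 and is known to carry a loss-of-function allele in FVB mice, was at 0.205 to 2.16 CPM over the 9 libraries (log2 fold change -0.08, edgeR FDR 0.949). Its highest value was that of aged sham 3, far above the other aged sham libraries, and without it the log2 fold change was 1.41 (edgeR FDR 0.0819). The terminal components C8a, C8b, and C9 were too scarce to test, with at most 0.0560 CPM in any library, so of the membrane attack complex C6, C7, C8g, and Hc were the genes that could be tested.

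Among the regulators (20 listed, 12 tested), 5 rose and 2 fell. Cfi, the protease that degrades C3b, rose from 5.49 ± 0.876 CPM (SD, n = 4) to 27.2 ± 7.88 CPM (SD, n = 5), with a log2 fold change of 2.31, a standard error of 0.22, and an edgeR FDR of 1.54e-04. Cd59a, a membrane protein that blocks assembly of the attack complex, rose from 17.0 ± 3.12 CPM to 44.5 ± 5.02 CPM, with a log2 fold change of 1.39, a standard error of 0.13, and an edgeR FDR of 1.54e-04. For both, all aged bleo libraries were above aged sham. Within aged bleo, Cfi was lowest in aged bleo 4 (18.4 CPM) and Cd59a highest in aged bleo 5 (50.8 CPM), and without these 2 libraries the log2 fold changes were 2.41 and 1.33. Cd59b rose by a log2 fold change of 0.74 (0.68 with an edgeR FDR of 0.103 without aged bleo 4 and aged bleo 5), and Susd4 and Csmd1, membrane proteins with complement control domains, rose by 2.23 and 1.58 (2.44 and 1.75 without these libraries), although Csmd1 was uneven in aged sham, with 40.5 CPM in aged sham 1 far above the rest. In the opposite direction, Cfhr2 went from 1.81 ± 0.372 CPM to 0.947 ± 0.428 CPM (log2 fold change -0.94, edgeR FDR 0.0640). The Cfhr2 call was lost without aged sham 3 or 4 or aged bleo 3 or 5 (edgeR FDR 0.111 to 0.142), and without both aged bleo 4 and aged bleo 5 (log2 fold change -0.58, edgeR FDR 0.109). Cr1l, a membrane regulator that acts on the same enzymes as Cd55, had an edgeR FDR of 0.00313 with a log2 fold change of -0.52, under the 1.5-fold threshold.

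Of the receptors (9 listed, 7 tested), 2 rose and none fell. C3ar1, the receptor of the C3 fragment C3a, went from 1.71 ± 0.575 CPM to 7.48 ± 5.46 CPM (log2 fold change 2.13, standard error 0.57, edgeR FDR 0.0187), and Cd93 from 4.79 ± 1.41 CPM to 9.35 ± 4.96 CPM (log2 fold change 0.97, edgeR FDR 0.0618). Both were highest in aged bleo 4 and overlapped between the groups. That library also had the highest macrophage (1841 CPM) and pan-leukocyte (566 CPM) marker sums. Its endothelial marker sum was the highest as well (24.5 CPM, beside 23.7 CPM in aged sham 4). The part of these cell types in both genes was not tested. The Cd93 call was lost without aged sham 1, 2, or 3 or aged bleo 5 (edgeR FDR 0.104 to 0.147). Without aged bleo 4 and aged bleo 5, C3ar1 was at a log2 fold change of 1.09 (edgeR FDR 0.0480) and Cd93 at 0.44 (edgeR FDR 0.191), so that Cd93 was not called. The count of 14 called genes over the 4 lists dropped to 9 without aged sham 2 and to 9 without aged bleo 5, and rose to 19 (8 higher, 11 lower) without aged bleo 4. Without aged bleo 4 and aged bleo 5 it was 10 (6 higher, 4 lower), of which 6 were among the 14. None of the other complement genes named above as lower (C1ra, C1rb, C1s1, C1s2, and Cfhr2) kept its call in that setting.

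**Figure D4:**
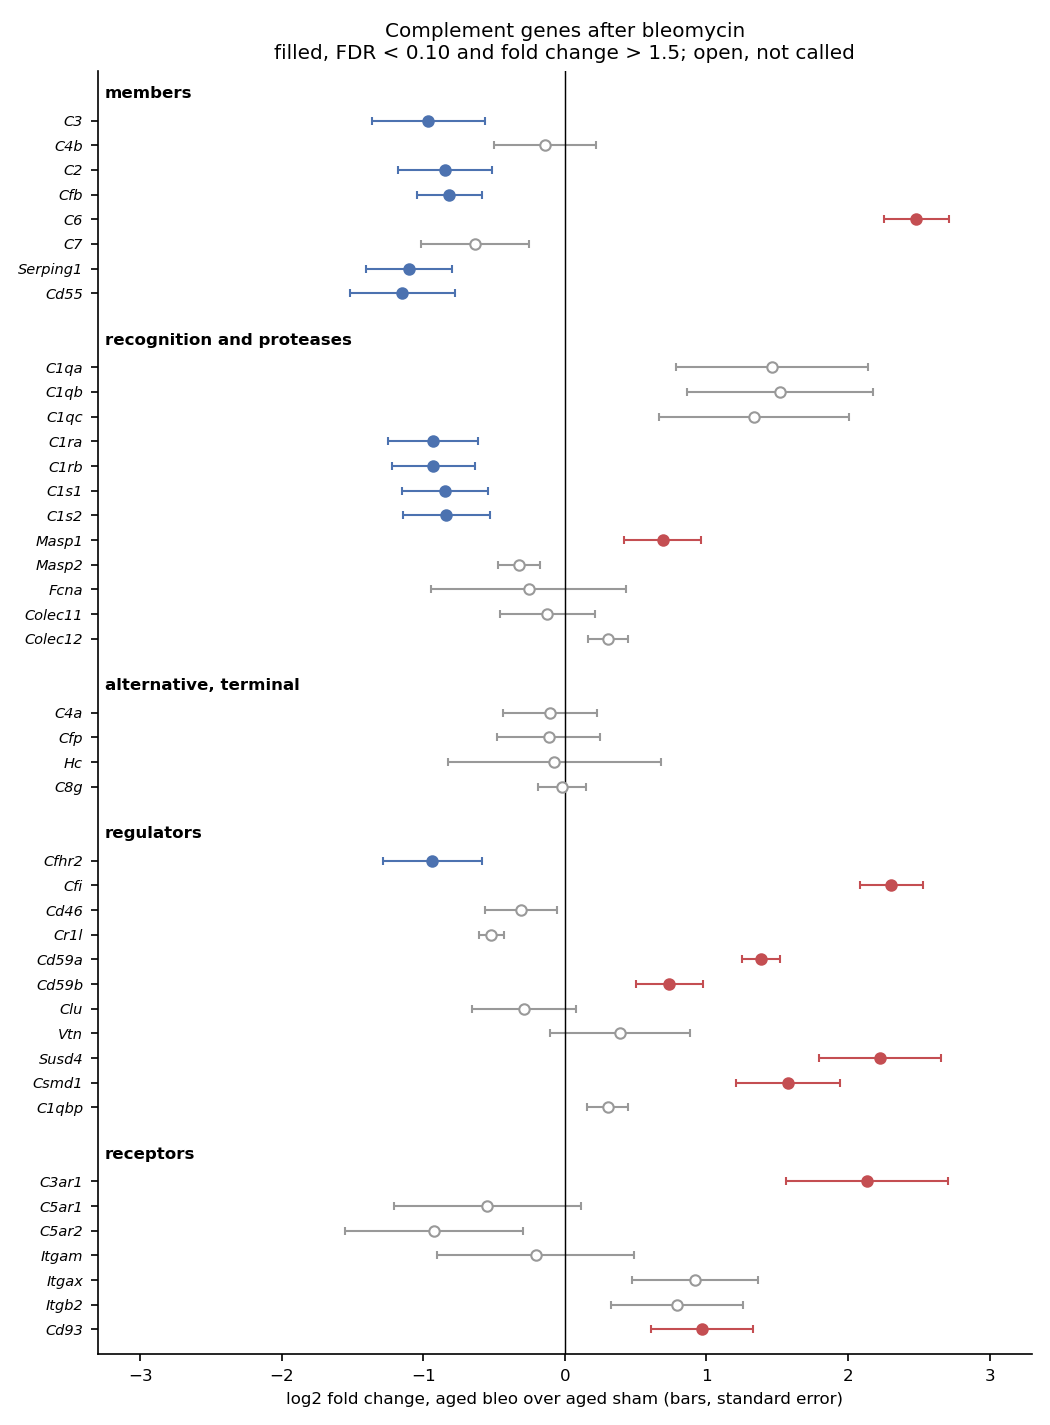
Log2 fold change of aged bleo over aged sham with its standard error (edgeR) for the 8 tested members and 34 of the 35 other complement genes tested, grouped by role. Filled points passed FDR under 0.10 and fold change over 1.5 (red, higher; blue, lower), and C6 and Cfi lie farthest to the right, at 2.48 and 2.31.

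By position, C4b, Cfb, and C2 lie within the class III region of the mouse MHC on chromosome 17, C3 lies on the same chromosome, and C6 and C7 are neighbours on chromosome 15. The nearest tested genes beside C4b, Cyp21a2-ps and Tnxa, both fell (log2 fold changes -2.01 and -1.77, edgeR FDR 0.0149 and 0.0166), while C4b itself was not called. Both are copies of other genes in the region, so their share of reads is uncertain. Beside C6, Plcxd3 fell (log2 fold change -1.21, edgeR FDR 0.0452) and C7 was not called, so C6 and its tested neighbours did not move in one direction. The neighbours of C3, Tnfsf14 (edgeR FDR 0.417) and Gpr108 (edgeR FDR 0.702), were not called. Beside Serping1, Gm19426 rose (log2 fold change 0.91) and Ube2l6 was not called, and beside Cd55, Gm15675 fell (log2 fold change -1.57) and Gm16083, an antisense gene that covers 2.1% of the Cd55 exon bases, was at a log2 fold change of -1.04 with an edgeR FDR of 0.111. Over all 15 neighbours that are no members, 3 rose and 5 fell, where 12.3% of all genes tested rose and 11.5% fell. Gm20547, which fell, and Zbtb12, which rose, share exons with members, so the 15 are not all independent of them.

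The genes whose log2 CPM followed each member most closely over the 9 libraries were found among all genes tested, and these correlations carry the difference between groups and are given as a description. The closest to C3 was the complement protease C1s1 (Pearson's r = 0.998, n = 9 libraries), which also followed C3 most closely in the deviations from the group means (r = 0.997). The closest to Serping1 was Pmp22 (r = 0.998), to C2 Sema3b (r = 0.996), to Cd55 Ank2 (r = 0.992), to C4b Klhdc8b (r = 0.993), and to C7 Lrp3 (r = 0.987), while the closest to Cfb was Gm20547 (r = 0.996), which shares its exons. The closest to C6 was Fam210b (r = 0.997), which rose from 13.8 to 49.6 CPM on average. Once group means were removed, the closest were Sema3b for C2, Lgi4 for C4b, Gm16567 for Cfb, Efemp1 for C7, Gm15513 for Serping1, and Gm16083 for Cd55, all at r of 0.993 or more, and Them6 for C6 at r = 0.973.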

How the data were processed

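RNA-Seq libraries were made from polyadenylated RNA (TruSeq RNA v2) of sorted fibroblasts. The authors deposited whole-number read counts per gene without normalization, and FPKM values, whose implied library totals are 2.27 to 2.42 times the summed counts. The submitters' processing notes name bcl2fastq, STAR 2.5.2b, Subread, featureCounts, and GRCm38, and of 42462 gene identifiers shared with GENCODE M21, 78.9% have the same start and end there. Strand use in counting is not stated.

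Genes averaging 25 or more counts were tested with edgeR 4.0.16 (TMM, glmQLFit, and glmQLFTest, no covariate) in R 4.3.3. FDR is the Benjamini-Hochberg value over the 16877 genes tested. Standard errors were taken from the log2 fold change and its F statistic, and log2 CPM used a prior count of 2. Libraries were grouped by sample label, and the labels give as many lungs as libraries in each group. Within groups, chi-square per degree of freedom between libraries was 31.2 to 468.7, so none was a duplicate.

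The members and lists were chosen with earlier results of these data known. Genes named are the members, other listed complement genes that were called (C4a, Hc, and Cd55b in any case), the nearest tested neighbours, the most alike gene by Pearson correlation, and marker lists. Cr1l, the C1q genes, C8a, C8b, C8g, C9, and Cpn2 were added after their values were seen. The pan-leukocyte, macrophage, neutrophil, mesothelial, adipocyte, epithelial, endothelial, smooth muscle and pericyte, fibroblast identity, adventitial, and alveolar lists hold markers. Epithelial and endothelial lists had 1 gene higher each, the epithelial list 1 lower, the smooth muscle and pericyte list 1 higher and 3 lower, and the fibroblast identity list 4 higher and 2 lower. Alternatives were DESeq2 1.42.0, limma 3.58.1 on log2 CPM and on log2(FPKM + 0.1) and log2(FPKM + 1), RLE factors, unadjusted library sizes, all genes without a filter, a minimum of 10 counts per library, robust fitting, an FDR under 0.05 with a fold change over 2, each library left out, replicate numbers as a block, and label number 4 only, and 2 pairs of libraries were left out as alternatives chosen after seeing the data. The code was tested on simulated data. Of the listed regulators, 1 called gene is counted but not reported here.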

Additional observations from a re-analysis of the deposited data

Results flagged for a closer look

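Over 58 groups of values of 29 complement genes, 2 single libraries lay far from the rest of their group by Dixon's criterion, where chance alone gives about 1 such library in 20 groups. Csmd1 was at 40.5 CPM in aged sham 1, and Hc was at 2.16 CPM in aged sham 3, each far above the other aged sham libraries. No member had such a library.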

How the results depend on the processing

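The calls of C6, Serping1, and Cd55 held under all 23 alternatives. The count of 6 members called was 3 under FDR under 0.05 and fold change over 2, 3 without aged bleo 4 and aged bleo 5, and 4 to 7 with each library left out in turn. C3 and C2 lost their calls without any 1 of aged sham 1 to 4, aged bleo 1, or aged bleo 5 (edgeR FDR up to 0.161 and 0.155), and C3 also with no filter (edgeR FDR 0.118). The log2 fold change of C4b, -0.14, turned to 0.0629 without aged sham 4 and aged bleo 4 and to 0.28 without aged bleo 4 and aged bleo 5, and ranged from -0.3394 to 0.0503 with each library left out, above 0 without aged bleo 4 (0.0503) and without aged bleo 5 (0.0128). That of C4a turned to 0.1476 and 0.2444 without these pairs, and ranged from -0.2761 to 0.0958 (without aged bleo 4). That of Hc turned to 0.42 with limma-trend, 0.0444 on log2(FPKM + 0.1), 0.67 under the replicate block, and 0.18 without aged bleo 4 and aged bleo 5, and ranged from -0.39 to 1.41 (without aged sham 3), above 0 also without aged bleo 1 or aged bleo 5. The count of genes called was 1785 on log2(FPKM + 1), 2158 under stricter thresholds, 6177 with label number 4 only, and 3525 to 4597 with each library left out. Of the other complement genes, 8, 5, and 22 were called in those 3 settings, and 9 to 19 with each library left out. The causes were not tested. Correlations of deviations from the group means were 0.0922, 0.0623, and -0.1304 for the same-numbered libraries 1, 2, and 3. For aged sham 4 and aged bleo 4 the correlation was 0.3262, the highest of all pairs. Pairs of different number gave -0.2128 to 0.2522. The numbers were not taken as pairs in the main test. The replicate block, which leaves out aged bleo 5, called 3541 genes, 4 members, and 11 other complement genes. Cfd, Cd55b, and the other 16 untested complement genes were too scarce for the main test. Among them, only Cpn2 had groups that did not overlap. Its counts were 0, 0, 0, and 1 in aged sham 1 to 4, and 4, 8, 8, 7, and 12 in aged bleo 1 to 5. The share of all untested genes with such groups was not computed, so these counts are a description only.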
